A study of Coryphaena hippurus with 27 samples.

Results

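The microRNAs numbered miR-722 to miR-740 are small regulatory RNAs that were first described in zebrafish and are known from fish, and they are followed here in embryos and larvae of mahi-mahi, Coryphaena hippurus, exposed to crude oil. They were chosen by number: every name of the 6 deposited count tables whose number lies from that of miR-722 to that of miR-740, leaving out miR-731, with any letter or arm. The rule covers 18 numbers and found 29 names of 1449 in all, which come from 15 numbers, while miR-732, miR-739 and miR-740 had no name in any table. The names in the tables carry no species prefix, so the restriction to fish is background and was not measured.

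The study sequenced small RNA of whole animals at 24, 48 and 96 hours post fertilisation (hpf) after exposure to slick oil or source oil, beside unexposed controls. Slick oil is crude oil skimmed off the sea after the Deepwater Horizon spill, and source oil is crude oil from the well; each was mixed into seawater as a high-energy water accommodated fraction and diluted, and the labels give 1 g/l for both. Each of the 9 groups, slick oil, source oil and control at each stage, held 3 libraries, which makes 27. A library came from a pool of 30 embryos or larvae of wild-caught hatchery broodstock, with no genetic alteration named in the labels for any group, and exposure began soon after fertilisation in static water without renewal. The 3 controls of a stage served both oils, so the comparisons of slick and source oil with control share those libraries.

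A microRNA (miRNA) is cut from a hairpin precursor, whose 5p and 3p arms can each give a mature strand that is loaded into Argonaute and represses mRNAs matching its seed. Most families studied in vertebrates are shared from fish to mammals, and the numbers treated here belong to the minority annotated in fish. For few of them is a function known: in zebrafish, miR-722 expressed in neutrophils lowers their recruitment to wounds and targets the small GTPase rac2.

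Library totals lay between 51925 and 93055 counts, and the 29 names together took 0.941 to 1.74% of a library. Of the markers of the labelled whole animal, the muscle miRNAs miR-1, miR-206 and miR-133a, the neural miR-9 and miR-124, the liver miRNA miR-122 and the red blood cell miRNA miR-144 were detected in 27 of 27 libraries. The other red blood cell miRNA, miR-451, was detected in 26 of 27, with a median of 13.6 normalised counts and a lowest value of 0. Across the 27 replicate pairs the chi-square per degree of freedom was 0.481 to 1.86, and under 1 in 19 pairs. A value under 1 is closer agreement than sampling noise of independently counted reads gives on average. All pairs of 48 hpf slick oil (0.481 to 0.571) and of 48 hpf source oil (0.543 to 0.743) were of this kind. The bearing of this on the p-values was not tested. Slick oil replicates 1 and 2 and source oil replicates 1 and 3 of 24 hpf differed by less than sampling noise in a chi-square test while the other pairs of their groups did not. Each of these 24 hpf pairs was averaged into 1 library in an alternative, in which 7 names passed under slick oil and 6 under source oil, against 9 and 8 with 3 libraries. Of the 48 hpf controls, replicates 4 and 5 agreed most closely, replicate 6 differed from replicate 4 beyond sampling noise, and replicates 5 and 6 did not differ beyond it. With 48 hpf control replicates 4 and 5 averaged, an alternative added after seeing the data, 9 names passed under slick oil and 2, miR-722 and miR-725-3p, under source oil, against 11 and 7. The shares of all names called with pairs averaged are not given here, so these lower counts cannot be read as particular to these names. The labels give pools from replicate beakers and not separate spawns, so p-values do not cover the spread between spawns. Where pools agreed more closely than sampling noise, a p-value may reflect counting noise and not the spread between pools. Levels are normalised counts per 70000 counts in a library, and means carry the SD of 3 libraries (n = 3). Log2 fold changes carry an SE, taken as their size over the square root of the F statistic. Where replicates agree more closely than sampling noise, this SE can be too small. For example, miR-725 in source oil at 48 hpf, at -0.84 ± 0.25, had an unadjusted p of 0.02867 in the edgeR test. Adjusted p-values come from the quasi-likelihood F test of edgeR, with a threshold of 0.05.

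The 29 names held few separate signals. The counts of miR-724 and miR-724-5p differed by 0.714% of their sum over all libraries, those of miR-730 and miR-730a-5p by 0.99%, and those of miR-737 and miR-737-5p by 0.403%, so that each pair is treated as 1 signal. miR-722-3p held 33.3 to 66.7% of the count of miR-722, with a median of 52%, and is given beside it as a further name of that miRNA. The highest mean over the 27 libraries was that of miR-724, at 196 normalised counts, followed by miR-725-3p at 113, miR-734-3p at 88.5, miR-727-3p at 60.3, miR-734-5p at 50.1, miR-737-5p at 30.1 and miR-722 at 29.2. The weaker signals, miR-730a-5p and miR-727-5p, averaged 16.9 and 11.3. miR-724, the most abundant of them, ranked 113 among all names.

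Both arms averaged above 10 normalised counts for 2 hairpins, miR-734 and miR-727. In controls miR-734-3p averaged 28.1 ± 3.42, 49.6 ± 2.68 and 158 ± 5.72 normalised counts at 24, 48 and 96 hpf, and miR-734-5p averaged 21.2 ± 4.11, 62.9 ± 2.37 and 112 ± 8.20, so that for miR-734 the 5p arm was the higher one at 48 hpf and the 3p arm at the other stages. miR-727-3p stood above miR-727-5p in every library. For miR-725, the name without an arm averaged 7.56 and the 3p arm 113.

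In unexposed animals most tested names rose from 48 to 96 hpf, and most did not pass from 24 to 48 hpf. From 24 to 48 hpf miR-734-5p rose by 1.54 ± 0.16 on the log2 scale (adjusted p = 3.988e-08), miR-727-3p by 1.21 ± 0.17 (adjusted p = 3.417e-06) and miR-734-3p by 0.79 ± 0.14 (adjusted p = 0.000192), while miR-724 fell, with a log2 fold change of -0.38 ± 0.08 (adjusted p = 0.000392). From 48 to 96 hpf the largest rise among the tested names was that of miR-734-3p, at 1.73 ± 0.09 (adjusted p = 2.059e-12). The other names that rose in this step were miR-734-5p (0.89 ± 0.10), miR-724 (0.88 ± 0.07), miR-730a-5p (0.78 ± 0.27), miR-727-3p (0.66 ± 0.12) and miR-722 (0.59 ± 0.16), each with the second name of its signal where there is one. miR-725-3p fell in the same step, with a log2 fold change of -0.26 ± 0.08 (adjusted p = 0.02202).

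In the first step 3 of 13 tested names rose and 2 fell, in a fit in which 23.3% of all names rose and 22% fell. In the second step 9 of 13 rose and 1 fell, with 29.6% of all names higher and 29.1% lower, and the median log2 fold change of the 13 names was 0.66, against -0.03 over all 605 names tested. DESeq2 called 6 of the 10 names of the second step, all higher. It did not call the rises of miR-730a-5p (adjusted p = 0.1602), miR-730 (0.1769) and miR-722-3p (0.148) or the fall of miR-725-3p (0.2383). With library size alone miR-730 did not pass (adjusted p = 0.05548) and miR-730a-5p did (0.04394). Without 96 hpf control replicate 9 the count of called names was also 6.

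**Figure D1:**
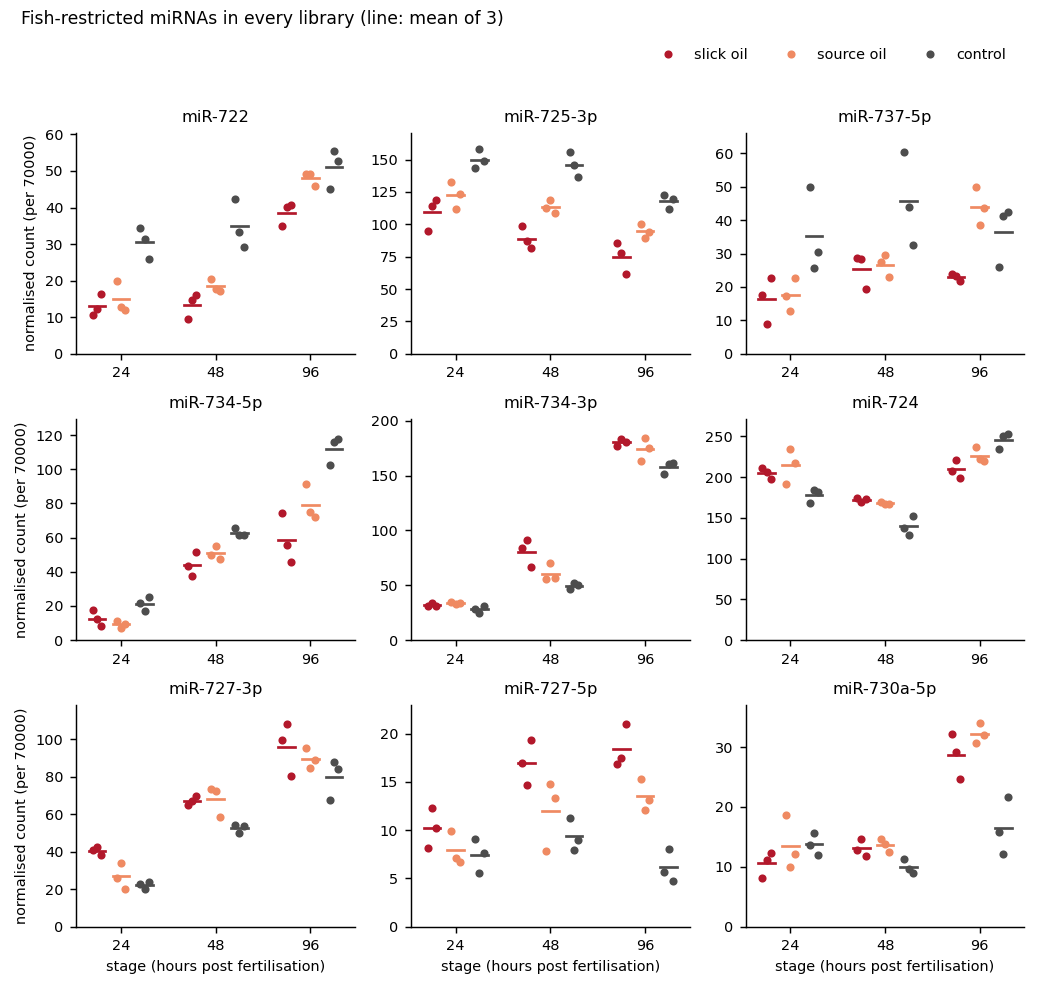
Normalised counts per 70000 (y axis) of 9 miRNA names by stage in hours post fertilisation (x axis), with a point for each of the 27 libraries, coloured by slick oil, source oil and control, and a line at the mean of 3. At 24 and 48 hpf the 6 slick oil and 6 source oil libraries of miR-722 all lie below the controls, and the axis of each panel starts at 0.

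Under oil miR-722, miR-725-3p, miR-737-5p and miR-734-5p were lower wherever they passed. The signals miR-734-3p, miR-727-3p, miR-727-5p and miR-730a-5p were higher wherever they passed. miR-724 was higher in both oils at 24 and 48 hpf and lower in slick oil at 96 hpf. This grouping was read from the same comparisons. The effect differed between stages for miR-722 and miR-724 in both oils, miR-734-3p in slick oil and miR-737-5p in source oil. Names of 7 numbers passed the filter on low counts in each oil comparison, and counts below are over the names tested and not over the 29. In slick oil at 24 hpf 6 of 12 tested names were lower and 3 higher, in a fit in which 17.4% of all names were lower and 21.3% higher. In source oil at 24 hpf 6 of 12 were lower and 2 higher, with 12.2% lower and 14.2% higher among all names. At 48 hpf 7 of 14 names were lower and 4 higher in slick oil, where 21.3% and 19.5% of all names were lower and higher. In source oil at that stage 5 of 14 were lower and 2 higher, where 10.1% and 9.22% of all names were lower and higher.

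By 96 hpf 7 of 13 names were lower and 5 higher in slick oil, with 27.6% lower and 32.5% higher among all names. In source oil 2 of 13 were lower and 3 higher, with 19.7% lower and 28.3% higher among all names. The median log2 fold changes of the tested names at 24, 48 and 96 hpf were -0.40, -0.11 and -0.20 in slick oil and -0.17, -0.03 and 0.19 in source oil, against medians over all names of -0.03, 0.01 and -0.01 in slick oil and -0.01, -0.01 and 0.03 in source oil. Because names repeat signals, these counts are of names and not of separate miRNAs.

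The counts depended on the tool and on single libraries. DESeq2 called 5, 7 and 8 names in slick oil at 24, 48 and 96 hpf and 0, 0 and 4 in source oil. In source oil at 24 and 48 hpf 5 and 7 names had an unadjusted p under 0.05 in DESeq2. Without control replicate 1 the 24 hpf counts were 4 in slick oil and 2 in source oil, without slick oil replicate 2 the slick oil count was 4, and without control replicate 3, source oil replicate 2 or source oil replicate 3 the source oil count was 4, 4 or 3. At 48 hpf the source oil count was 1 without control replicate 4 and 4 without source oil replicate 5 or 6. The shares of all names called in these settings are not given here, so the lower counts cannot be read as particular to these names.

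**Figure D2:**
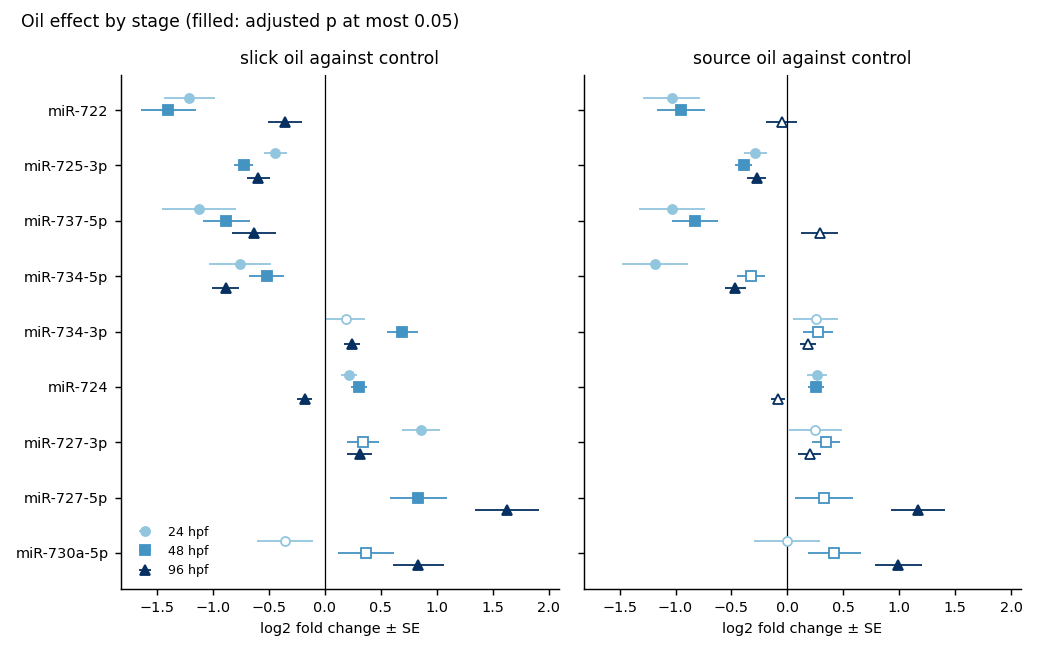
Log2 fold changes ± SE (x axis) of 9 names (rows) in slick oil (left) and source oil (right) against the controls of the same stage, with circles for 24 hpf, squares for 48 hpf and triangles for 96 hpf; filled symbols have an adjusted p of at most 0.05 and a missing symbol was not tested. The names of the upper 4 rows lie left of 0 in every comparison but miR-737-5p in source oil at 96 hpf (0.29). Bars show the SE from the F statistic and can be too narrow where replicates agreed more closely than sampling noise.

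miR-722, whose expression in zebrafish neutrophils lowers their recruitment, was lower under both oils at 24 and 48 hpf. At 24 hpf its normalised counts were 10.5, 12.3 and 16.4 under slick oil, 19.8, 12.8 and 12.1 under source oil, and 34.4, 31.4 and 26.1 in controls. At 48 hpf they were 9.56, 14.6 and 16.1 under slick oil, 20.5, 17.8 and 17.2 under source oil, and 42.3, 33.4 and 29.1 in controls. No oil library of either stage reached the lowest control. At 96 hpf the counts were 35.05, 40.2 and 40.6 under slick oil, 49.2, 49.0 and 45.9 under source oil, and 45.1, 55.3 and 52.8 in controls, so that all slick oil libraries lay below the lowest control and the source oil libraries overlapped the controls.

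The log2 fold change of miR-722 in slick oil was -1.21 ± 0.23 (adjusted p = 0.002922), -1.40 ± 0.25 (adjusted p = 4.23e-07) and -0.36 ± 0.15 (adjusted p = 0.04808) at 24, 48 and 96 hpf. In source oil it was -1.03 ± 0.26 (adjusted p = 0.006368), -0.95 ± 0.22 (adjusted p = 0.001732) and -0.05 ± 0.14 (adjusted p = 0.7914). For miR-722-3p the normalised counts at 24 hpf were 3.502, 5.59 and 7.19 under slick oil, 8.67, 8.51 and 5.36 under source oil, and 17.2, 13.4 and 14.1 in controls. At 48 hpf miR-722-3p had 3.19, 7.32 and 9.65 under slick oil, 10.7, 6.92 and 10.5 under source oil, and 24.2, 16.7 and 15.7 in controls, again with no overlap of either oil with the controls. At 96 hpf it had 18.2, 19.7 and 25.4 under slick oil, 30.6, 29.4 and 26.9 under source oil, and 22.6, 32.2 and 29.2 in controls. The log2 fold changes of miR-722-3p were -1.43 ± 0.30, -1.50 ± 0.27 and -0.36 ± 0.21 in slick oil and -0.99 ± 0.31, -1.03 ± 0.26 and 0.08 ± 0.19 in source oil, of which the 96 hpf values did not pass (adjusted p = 0.1434 and 0.7565). With cyclic loess over abundance, a scaling that levels fold changes between weak and strong names, the slick oil value of miR-722-3p at 96 hpf was -0.59 (adjusted p = 0.01716). Its slick oil call at 24 hpf was lost in DESeq2 (adjusted p = 0.05089). Its source oil call at 24 hpf was lost with cyclic loess (adjusted p = 0.0925), without control replicate 1 or 3 and without source oil replicate 1, 2 or 3 (adjusted p 0.0532 to 0.1936). At 48 hpf its source oil call was lost in DESeq2 (adjusted p = 0.1972) and without control replicate 4 (adjusted p = 0.1519) or source oil replicate 5 (adjusted p = 0.07821). The size of the miR-722 change differed between stages, with an adjusted p of 0.01578 in slick oil and 0.02834 in source oil for both treatment-by-stage terms together (0.0971 and 0.0917 in DESeq2, and 0.156 and 0.225 with cyclic loess over abundance).

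In slick oil the calls of miR-722 at 24 and 48 hpf held in every alternative that tested it, DESeq2 and the authors' deposited table included. The 96 hpf call was lost with replicate number as a block (adjusted p = 0.0536), in DESeq2 (adjusted p = 0.1056), with library size alone (adjusted p = 0.1141) and without control replicate 8 or 9 or slick oil replicate 7, 8 or 9 (adjusted p 0.05718 to 0.1669). In source oil DESeq2 gave an adjusted p of 0.1096 at 24 hpf and 0.08786 at 48 hpf, and the calls were lost without source oil replicate 3 (adjusted p = 0.05899) and without control replicate 4 (adjusted p = 0.05004) of these stages.

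Of leukocyte miRNAs, only miR-142 and miR-223 were examined here. The 12 names of miR-142 and miR-223, of which 11 were above 0 in every library and miR-142b-5p was at 0 in some, summed at 24 hpf to 99.6 to 178 normalised counts in slick oil, 97.9 to 122 in source oil and 189.97 to 227 in controls. At 48 hpf the sums were 126 to 139, 143 to 179 and 229.6 to 400 in the same order of groups, and at 96 hpf 129 to 168, 174 to 224 and 192 to 264. Of the 5 to 7 such names tested, 4 were lower in each comparison except source oil at 96 hpf, where 0 passed, and 0 were higher in any. In slick oil at 24, 48 and 96 hpf 17.4, 21.3 and 27.6% of all names were lower and 21.3, 19.5 and 32.5% higher. In source oil 12.2, 10.1 and 19.7% were lower and 14.2, 9.22 and 28.3% higher. The leukocyte names were not checked for repeated signals. The part of these leukocyte names in the miR-722 result was not tested, and in RNA of whole animals fewer cells of a type and less RNA per cell cannot be told apart.

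miR-725-3p was lower in all 6 oil comparisons. Its normalised counts at 24 hpf were 94.6, 114 and 119 under slick oil, 133, 112 and 123 under source oil, and 143, 158 and 149 in controls. At 48 hpf it had 98.8, 86.8 and 81.5 under slick oil, 112, 119 and 109 under source oil, and 156, 146 and 137 in controls. At 96 hpf it had 85.5, 78.1 and 61.7 under slick oil, 99.99, 89.8 and 93.9 under source oil, and 123, 112 and 119.6 in controls. The slick oil and source oil libraries lay below the lowest control of their stage in all cases, and at 48 and 96 hpf the slick oil libraries also lay below the source oil libraries.

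In slick oil its log2 fold change was -0.44 ± 0.10 (adjusted p = 0.005458) at 24 hpf, -0.73 ± 0.08 (adjusted p = 8.731e-10) at 48 hpf and -0.59 ± 0.10 (adjusted p = 5.29e-06) at 96 hpf. Source oil gave -0.29 ± 0.10 (adjusted p = 0.04294), -0.39 ± 0.07 (adjusted p = 0.001626) and -0.28 ± 0.09 (adjusted p = 0.02429) at the same stages. The slick oil calls held in every library left out and in DESeq2. The source oil call at 24 hpf was lost in DESeq2 (adjusted p = 0.354), with replicate number as a block (adjusted p = 0.08059) and without control replicate 1, 2 or 3 or source oil replicate 2 or 3 (adjusted p 0.06368 to 0.1581), the 48 hpf call in DESeq2 (adjusted p = 0.05522), and the 96 hpf call with library size alone (adjusted p = 0.05392) and without control replicate 7 or 9 or source oil replicate 8 (adjusted p 0.05185 to 0.06464).

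The weak name miR-725, tested at 48 hpf, had normalised counts of 4.25, 7.32 and 6.44 under slick oil, 4.89, 6.92 and 7.63 under source oil, and 12.1, 10.5 and 12.3 in controls. Its log2 fold change was -0.94 ± 0.26 (adjusted p = 0.04866) in slick oil and -0.84 ± 0.25 (adjusted p = 0.1043) in source oil. The slick oil call was lost in DESeq2 (adjusted p = 0.2069) and with any of its 6 libraries left out (adjusted p 0.06164 to 0.1826).

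miR-737-5p separated the oils at 96 hpf. At 24 hpf its normalised counts were 17.5, 8.95 and 22.6 under slick oil, 17.3, 12.8 and 22.8 under source oil, and 49.8, 25.8 and 30.4 in controls. At 48 hpf they were 28.7, 28.2 and 19.3 under slick oil, 27.4, 29.7 and 22.9 under source oil, and 60.5, 43.9 and 32.5 in controls. No oil library reached the lowest control of its stage. At 96 hpf the counts were 23.8, 23.4 and 21.8 under slick oil, 49.997, 38.5 and 43.7 under source oil, and 25.9, 41.3 and 42.4 in controls, so that slick oil libraries were below all others while source oil libraries overlapped the controls.

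Its log2 fold change in slick oil was -1.12 ± 0.33 (adjusted p = 0.01938), -0.88 ± 0.21 (adjusted p = 0.000205) and -0.63 ± 0.20 (adjusted p = 0.00594) at 24, 48 and 96 hpf. In source oil the values were -1.03 ± 0.30 (adjusted p = 0.01565), -0.83 ± 0.20 (adjusted p = 0.004231) and 0.29 ± 0.16 (adjusted p = 0.1595). Set directly against each other at 96 hpf, the oils differed by a log2 fold change of slick over source oil of -0.89 ± 0.17 (adjusted p = 0.0002756), a call that held in every alternative that tested it. The source oil effect on miR-737-5p differed between stages (adjusted p = 0.01878), with the 96 hpf effect 1.13 above the 24 hpf effect on the log2 scale, and with cyclic loess over abundance the adjusted p was 0.0931.

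Single libraries bore on all of its calls against controls, large ones included, except that of slick oil at 48 hpf. In slick oil the 24 hpf call was lost without control replicate 1 (adjusted p = 0.1123) or slick oil replicate 2 (adjusted p = 0.0696), and the 96 hpf call without control replicate 8 (adjusted p = 0.05211) or 9 (adjusted p = 0.0662). In source oil the 24 hpf call was lost without control replicate 1 (adjusted p = 0.123) and in DESeq2 (adjusted p = 0.1099), and the 48 hpf call without control replicate 4 (adjusted p = 0.1414) or source oil replicate 6 (adjusted p = 0.06646) and in DESeq2 (adjusted p = 0.1336).

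The arms of the miR-734 hairpin moved in opposite directions under slick oil at 48 and 96 hpf. At 24 hpf miR-734-5p had normalised counts of 17.5, 12.3 and 8.21 under slick oil, 11.2, 7.09 and 9.38 under source oil, and 21.7, 16.8 and 25.0 in controls. At 48 hpf it had 43.6, 37.6 and 51.5 under slick oil, 49.8, 55.4 and 47.7 under source oil, and 65.7, 61.5 and 61.6 in controls, and at 96 hpf 74.3, 55.5 and 45.7 under slick oil, 91.1, 74.7 and 72.1 under source oil, and 103, 116 and 118 in controls. All oil libraries of 48 and 96 hpf lay below the lowest control, as did those of source oil at 24 hpf, whereas slick oil replicate 1 of 24 hpf lay within the controls.

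The log2 fold change of miR-734-5p in slick oil was -0.76 ± 0.28 (adjusted p = 0.04908), -0.52 ± 0.16 (adjusted p = 0.005547) and -0.88 ± 0.12 (adjusted p = 8.194e-08) at 24, 48 and 96 hpf. For source oil it was -1.19 ± 0.29 (adjusted p = 0.006355), -0.32 ± 0.13 (adjusted p = 0.1185) and -0.47 ± 0.10 (adjusted p = 0.0001949). The 96 hpf calls of both oils held in every alternative that tested the name. The slick oil call at 24 hpf was lost in DESeq2 (adjusted p = 0.2325), with cyclic loess (adjusted p = 0.1039), with replicate number as a block (adjusted p = 0.0671) and without control replicate 1 or 3 or slick oil replicate 2 or 3 (adjusted p 0.1107 to 0.2092), and that at 48 hpf in DESeq2 (adjusted p = 0.1013), with cyclic loess (adjusted p = 0.07021) and without slick oil replicate 5 (adjusted p = 0.0839). In source oil at 24 hpf DESeq2 gave an adjusted p of 0.1354.

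At 24 hpf miR-734-3p had normalised counts of 31.5, 33.6 and 30.8 under slick oil, 34.7, 32.6 and 33.5 under source oil, and 28.1, 24.6 and 31.5 in controls. At 48 hpf it had 83.9, 91.0 and 66.5 under slick oil, 55.7, 70.2 and 56.3 under source oil, and 46.7, 51.8 and 50.4 in controls, and at 96 hpf 177, 183 and 181 under slick oil, 163, 184 and 175 under source oil, and 151, 161 and 161 in controls. All 3 slick oil libraries of 48 and 96 hpf lay above the highest control, and the source oil libraries did so as well. The log2 fold change in slick oil was 0.19 ± 0.17 (adjusted p = 0.5326), 0.69 ± 0.14 (adjusted p = 2.371e-05) and 0.24 ± 0.07 (adjusted p = 0.00792). In source oil it was 0.25 ± 0.20 (adjusted p = 0.4292), 0.27 ± 0.14 (adjusted p = 0.2172) and 0.19 ± 0.07 (adjusted p = 0.06133), so that it passed in slick oil at 48 and 96 hpf and in source oil at no stage.

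The 48 hpf call of miR-734-3p in slick oil held in every alternative that tested it, and the 96 hpf call was lost in DESeq2 (adjusted p = 0.1205) and without control replicate 7 (adjusted p = 0.05822), while the source oil value of 96 hpf passed without source oil replicate 7 (adjusted p = 0.01931), with library size alone (0.02356), with cyclic loess over abundance (0.01375) and with a mean count of at least 50 (0.01338). The slick oil effect differed between stages (adjusted p = 0.006727), at 0.57 higher at 48 than at 24 hpf on the log2 scale; this difference did not pass in DESeq2 (adjusted p = 0.1403) and its adjusted p ranged from 0.005536 to 0.2109 over the alternatives. It was lost without control replicate 3, 4, 6 or 8 or slick oil replicate 1, 4, 5 or 9 (adjusted p 0.05097 to 0.2109). Between the oils at 48 hpf slick oil was higher by 0.43 ± 0.12 (adjusted p = 0.04118).

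Within a library, the ratio of the arms does not depend on the library total. The miR-734 3p over 5p ratio at 24 hpf was 1.80, 2.73 and 3.75 in slick oil, 3.11, 4.60 and 3.57 in source oil and 1.29, 1.47 and 1.26 in controls. At 48 hpf it was 1.93, 2.42 and 1.29 in slick oil, 1.12, 1.27 and 1.18 in source oil and 0.711, 0.843 and 0.818 in controls. At 96 hpf it was 2.39, 3.30 and 3.95, 1.79, 2.46 and 2.43 and 1.47, 1.39 and 1.37 in the same order of groups. In all 6 comparisons every oil library had a higher ratio than the highest control of its stage. The means were 2.76 ± 0.975, 3.76 ± 0.762 and 1.34 ± 0.111 at 24 hpf, 1.88 ± 0.564, 1.19 ± 0.0755 and 0.791 ± 0.0704 at 48 hpf, and 3.21 ± 0.787, 2.23 ± 0.382 and 1.41 ± 0.0549 at 96 hpf, in slick oil, source oil and controls. The ratio is a description of unequal change of the arms and was not tested.

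**Figure D3:**
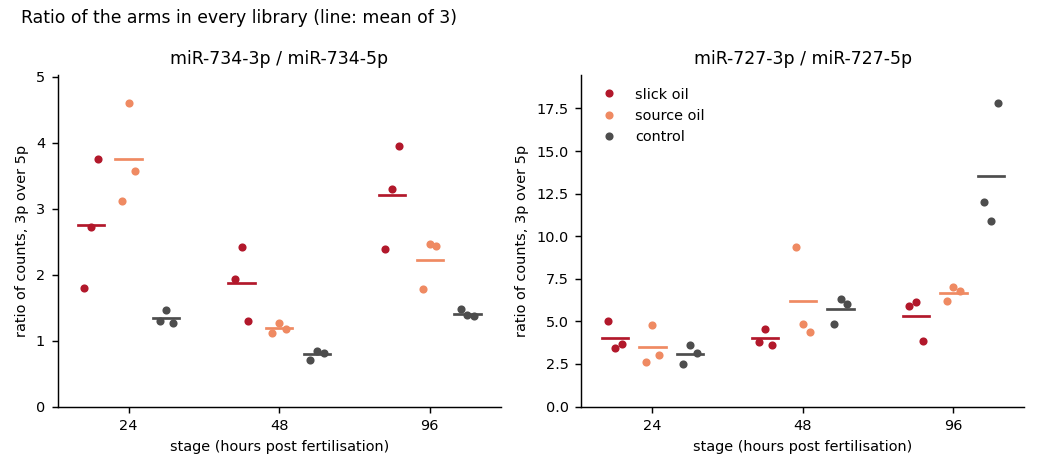
Ratio of the counts of the 3p arm over the 5p arm (y axis, linear) of miR-734 (left) and miR-727 (right) by stage in hours post fertilisation (x axis), with a point per library and a line at the mean of 3 libraries. For miR-734 both oil groups lie above the controls at each stage, and for miR-727 at 96 hpf the oil libraries lie at 3.83 to 7.00, below the controls at 10.9 to 17.8.

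For miR-727 the arm in excess was the 3p arm, and at 96 hpf the 5p arm had the larger fold change. At 48 hpf miR-727-5p had normalised counts of 17.0, 14.6 and 19.3 under slick oil, 7.82, 14.8 and 13.4 under source oil, and 11.2, 7.91 and 8.96 in controls. At 96 hpf it had 16.8, 17.5 and 21.0 under slick oil, 15.3, 12.1 and 13.1 under source oil, and 5.64, 8.05 and 4.71 in controls. At this last stage every oil library lay above the highest control. Its log2 fold change at 96 hpf was 1.63 ± 0.28 (adjusted p = 6.426e-06) in slick oil and 1.17 ± 0.25 (adjusted p = 0.004549) in source oil. At 48 hpf it was 0.84 ± 0.25 (adjusted p = 0.02946) in slick oil and 0.33 ± 0.26 (adjusted p = 0.5656) in source oil, and at 24 hpf the name did not pass the filter.

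The slick oil call of miR-727-5p at 96 hpf held in every alternative that tested it. That at 48 hpf was lost in DESeq2 (adjusted p = 0.1582), with cyclic loess (adjusted p = 0.07879) and without control replicate 5 or 6 or slick oil replicate 4 or 6 (adjusted p 0.05858 to 0.117). In source oil at 96 hpf the adjusted p was 0.05076 in DESeq2 and 0.07865 with cyclic loess over abundance. The 3p over 5p ratio at 96 hpf was 5.30 ± 1.28 in slick oil, 6.66 ± 0.407 in source oil and 13.6 ± 3.72 in controls, and these ranges did not overlap with the controls. The 5p arm is weak, at 4.71 to 8.05 normalised counts in those controls. At 96 hpf names with a mean count under 50 had a median log2 fold change of 0.28 in both oils. The part of this shift in the ratio was not tested.

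miR-727-3p was higher in slick oil at 24 and 96 hpf. In the edgeR test of both treatment-by-stage terms its slick oil effect did not differ between stages (adjusted p = 0.07721). With cyclic loess over abundance that difference passed (adjusted p = 0.02937). At 24 hpf its normalised counts were 40.9, 42.5 and 38.0 under slick oil, 26.0, 34.0 and 20.1 under source oil, and 22.7, 20.2 and 23.9 in controls. At 48 hpf it had 64.8, 66.9 and 69.7 under slick oil, 73.3, 72.2 and 58.2 under source oil, and 54.4, 50.1 and 53.8 in controls, and at 96 hpf 99.5, 108 and 80.6 under slick oil, 95.2, 84.5 and 88.8 under source oil, and 67.7, 87.5 and 83.8 in controls. Slick oil libraries lay above the controls at 24 and 48 hpf and overlapped them at 96 hpf. The source oil libraries of 48 hpf also lay above the controls. The log2 fold change in slick oil was 0.86 ± 0.17 (adjusted p = 0.003224), 0.34 ± 0.14 (adjusted p = 0.05734) and 0.31 ± 0.11 (adjusted p = 0.01433), and in source oil 0.25 ± 0.24 (adjusted p = 0.5015), 0.35 ± 0.13 (adjusted p = 0.07999) and 0.20 ± 0.10 (adjusted p = 0.1595). The 24 hpf call held in DESeq2 and in every library left out, and its adjusted p in the authors' deposited table was 0.06317. The 96 hpf call was lost in DESeq2 (adjusted p = 0.1103) and without control replicate 7 or slick oil replicate 7 or 8 (adjusted p 0.05336 to 0.1751), and in source oil the 48 hpf value passed without source oil replicate 6 (adjusted p = 0.04593). With cyclic loess over abundance the 48 hpf values passed in both oils, at 0.49 in slick oil (adjusted p = 0.005644) and 0.42 in source oil (adjusted p = 0.03088).

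miR-730a-5p rose in both oils at 96 hpf. Its normalised counts at that stage were 32.2, 29.2 and 24.7 under slick oil, 30.6, 34.0 and 32.0 under source oil, and 15.8, 12.1 and 21.7 in controls, with no oil library as low as the highest control. The log2 fold change was 0.84 ± 0.23 (adjusted p = 0.0016) in slick oil and 0.99 ± 0.21 (adjusted p = 8.957e-05) in source oil, and both calls held in every alternative that tested the name. At 24 hpf it had 8.17, 11.2 and 12.3 under slick oil, 18.6, 9.93 and 12.1 under source oil, and 13.6, 15.7 and 11.9 in controls, and at 48 hpf 12.7, 14.6 and 11.8 under slick oil, 14.7, 13.8 and 12.4 under source oil, and 11.2, 9.67 and 8.96 in controls. These earlier differences did not pass, at -0.36 ± 0.25 (adjusted p = 0.438) and 0.37 ± 0.25 (adjusted p = 0.4032) in slick oil and -0.00 ± 0.30 (adjusted p = 0.9963) and 0.42 ± 0.23 (adjusted p = 0.4313) in source oil. In the edgeR test of both treatment-by-stage terms the effect on miR-730a-5p did not differ between stages (adjusted p = 0.07721 in slick oil and 0.2831 in source oil). With library size alone the slick oil difference passed (adjusted p = 0.02512). Its weak partner miR-730a-3p had 13, 14 and 7 counts in the slick oil libraries of 96 hpf, 12, 12 and 7 in source oil and 5, 4 and 4 in controls, and did not pass the filter against controls.

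Abundance moved with the fold changes of 96 hpf. There the oil libraries were deeper, with totals of 89482 to 93055 in slick oil and 86977 to 90152 in source oil, against 63164 to 75240.5 in controls, averaged over both tables. Names with a mean count under 50 had a median log2 fold change of 0.28 in slick oil and 0.28 in source oil, and names of at least 100 had -0.14 and -0.13. miR-730a-5p and miR-727-5p belong to the low names, and miR-724 and miR-734-3p to the high ones. With cyclic loess over abundance the slick oil values at 96 hpf were 0.59 for miR-730a-5p (adjusted p = 0.02758), 1.14 for miR-727-5p (adjusted p = 0.003066) and -0.94 for miR-734-5p (adjusted p = 2.016e-11), all on the log2 scale. In source oil they were 0.72 for miR-730a-5p (adjusted p = 0.00741), 0.78 for miR-727-5p (adjusted p = 0.07865) and -0.54 for miR-734-5p (adjusted p = 6.91e-05). At the earlier stages abundance moved with the fold changes in the reverse order. At 24 hpf names under 50 had medians of -0.06 in slick oil and -0.17 in source oil, and names of at least 100 had 0.03 and 0.10. At 48 hpf names under 50 had -0.03 and -0.02, and names of at least 100 had 0.06 and 0.01. The part of these shifts in the changes of single names was not tested.

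miR-724, the most abundant of these miRNAs, had small changes under oil, none above 0.4 on the log2 scale. At 24 hpf its normalised counts were 211, 207 and 198 under slick oil, 192, 234 and 217 under source oil, and 169, 184 and 181 in controls. At 48 hpf they were 174, 169 and 174 under slick oil, 170.0, 167 and 167 under source oil, and 138, 129 and 152 in controls, and at 96 hpf 208, 221 and 199.6 under slick oil, 237, 222 and 219.9 under source oil, and 235, 251 and 252 in controls. The oil libraries lay above the controls at 24 and 48 hpf, and at 96 hpf the slick oil libraries lay below them. In slick oil the log2 fold change was 0.22 ± 0.07 (adjusted p = 0.04011), 0.31 ± 0.07 (adjusted p = 0.004919) and -0.18 ± 0.07 (adjusted p = 0.02431) at 24, 48 and 96 hpf. Source oil gave 0.26 ± 0.09 (adjusted p = 0.03755), 0.26 ± 0.07 (adjusted p = 0.03497) and -0.08 ± 0.06 (adjusted p = 0.3489). The difference between stages passed in both oils, with an adjusted p of 2.541e-05 in slick oil and 0.0002468 in source oil, and under cyclic loess of 0.0768 and 0.285. In source oil it did not pass without source oil replicate 9 (adjusted p = 0.06574) or with library size alone (adjusted p = 0.05988). For miR-724-5p it passed with library size alone (adjusted p = 0.04179).

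The single calls of miR-724 depended on the scaling and on single libraries. With cyclic loess over abundance the 96 hpf value in slick oil was -0.03 (adjusted p = 0.7579), and the calls of 24 hpf in both oils and of 48 hpf in source oil were lost (adjusted p = 0.1897, 0.1912 and 0.06716). With library size alone the slick oil calls of 24 and 96 hpf and the source oil call of 24 hpf were lost (adjusted p = 0.1555, 0.1671 and 0.08131). DESeq2 called the name miR-724 in no comparison of an oil with controls. It did call miR-724-5p, of the same signal, in slick oil at 48 and 96 hpf (adjusted p = 0.04216 and 0.03402). The authors' deposited table called miR-724 in slick oil at 96 hpf (adjusted p = 0.04995). At 24 hpf the slick oil call was also lost with replicate number as a block (adjusted p = 0.09639) and without control replicate 1, 2 or 3 or slick oil replicate 1 or 2 (adjusted p 0.05465 to 0.1865). At 96 hpf it was lost without control replicate 8 or 9 or slick oil replicate 7 or 9 (adjusted p 0.05452 to 0.1209). In source oil the call was lost without control replicate 1, 2 or 3 or source oil replicate 2 or 3 at 24 hpf (adjusted p 0.06021 to 0.2205) and without control replicate 4 or 5 or source oil replicate 4, 5 or 6 at 48 hpf (adjusted p 0.06803 to 0.2136). The slick oil call at 48 hpf held in every library left out, with an adjusted p of 0.05769 in DESeq2.

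Slick and source oil were compared directly in 1 fit of the 9 libraries of each stage, and few names differed. At 24 hpf 0 of 12 tested names passed in edgeR, 1 had an unadjusted p under 0.05 (0 in DESeq2), and 1.16% of all names passed; the name was miR-727-3p, at 0.61 ± 0.20 (adjusted p = 0.2672). At 48 hpf 1 of 14 passed, miR-734-3p, where 5.49% of all names did. That call was lost in DESeq2 (adjusted p = 0.606), with library size alone (adjusted p = 0.07933) and without slick oil replicate 4 or 5 or source oil replicate 4 or 6, which each left a count of 0. At 96 hpf 3 of 15 names passed, all lower in slick oil, where 4.33% of all names did: miR-737, miR-737-5p and miR-734-5p.

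The difference of miR-734-5p at 96 hpf was -0.39 ± 0.12 (adjusted p = 0.04252) and did not pass in DESeq2 (adjusted p = 0.5638), with library size alone (adjusted p = 0.05682), with cyclic loess (adjusted p = 0.09846) or without slick oil replicate 8 or 9, source oil replicate 7, 8 or 9 or control replicate 8 or 9, which each left 2 names called, both of miR-737. For miR-725-3p the log2 fold changes of slick over source oil at 24, 48 and 96 hpf were -0.16 ± 0.11 (adjusted p = 0.612), -0.32 ± 0.09 (adjusted p = 0.09811) and -0.29 ± 0.10 (adjusted p = 0.107), none of which passed; without slick oil replicate 7 the 96 hpf difference did (adjusted p = 0.02863). For miR-722 the differences were -0.18 ± 0.30, -0.43 ± 0.27 and -0.27 ± 0.14, also short of the threshold.

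By stage, 4 of 14 tested names changed their response to slick oil (miR-722, miR-724, miR-724-5p and miR-734-3p), in a fit in which 41.4% of all names did. For source oil 5 of 14 changed (miR-722, miR-724, miR-724-5p, miR-737 and miR-737-5p), where 32.2% of all names did. The slick oil share was below that of all names and the source oil share near it.

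A list of other miRNAs taken by number, namely miR-459, miR-462, miR-731, miR-2184 to miR-2198 and miR-3906, gave 16 names for comparison. Which species carry the listed miRNAs was not measured. In slick oil 2 of 4 tested names were higher and 0 lower at 24 hpf, 2 of 6 higher and 2 lower at 48 hpf, and 4 of 11 higher and 3 lower at 96 hpf. In source oil 0 of 4 passed at 24 hpf in edgeR, with 2 at an unadjusted p under 0.05, then 0 of 6 were higher and 2 lower at 48 hpf, and 4 of 11 higher and 3 lower at 96 hpf. Among all names 21.3, 19.5 and 32.5% were higher and 17.4, 21.3 and 27.6% lower in slick oil at 24, 48 and 96 hpf. In source oil 14.2, 9.22 and 28.3% were higher and 12.2, 10.1 and 19.7% lower. The slick oil counts of 96 hpf lay near these shares. Their tested names had median log2 fold changes of 0.54, 0.14 and -0.28 in slick oil and 0.17, -0.05 and -0.20 in source oil. Over all names the medians were -0.03, 0.01 and -0.01 in slick oil and -0.01, -0.01 and 0.03 in source oil.

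The remaining names were near the detection limit, where a count of 0 in a library allows up to 3 counts. miR-726, miR-730a-2-3p, miR-733, miR-735-5p, miR-736, miR-736-3p and miR-738 never had more than 2 counts in a library. miR-722-5p, miR-723-3p, miR-724-3p, miR-728, miR-729, miR-734 and miR-737-3p reached 7 counts at most. miR-729 was at 0 in all 9 libraries of 48 hpf; at 96 hpf it had 3, 1 and 2 counts in slick oil, 4, 4 and 1 in source oil and 4, 5 and 6 in controls. miR-722-5p had 4, 7 and 5 counts in slick oil at 96 hpf, 3, 2 and 4 in source oil and 2, 1 and 0 in controls. These names did not pass the filter in an oil comparison. Fitted without the filter, 3 of them passed, all in slick oil. Of the names short of the filter, 0 of 13, 1 of 11 and 2 of 13 passed in slick oil at 24, 48 and 96 hpf. In source oil 0 of 12, 0 of 10 and 0 of 12 did. The share of all names called without the filter is not given here, so these calls cannot be read as particular to these names. miR-728 passed at 48 hpf (adjusted p = 0.04788), with 1, 1 and 1 counts in slick oil and 6, 5 and 3 in controls. At 96 hpf miR-729 was lower (adjusted p = 0.02079) and miR-722-5p higher (adjusted p = 0.03767). In the authors' deposited table these 96 hpf values did not pass, with an adjusted p of 0.07289 for miR-729 and 0.1427 for miR-722-5p.

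The authors' deposited tables of DESeq2 results can be set beside these calls. Of the names, 1, 7 and 9 were called by the authors' deposited table in slick oil at 24, 48 and 96 hpf, and 0, 0 and 4 in source oil. The share of all names that the authors called is not given here. For miR-722 the authors' deposited table gives log2 fold changes of -0.82 (adjusted p = 0.04296), -0.98 (adjusted p = 0.0007671) and -0.36 (adjusted p = 0.0944) in slick oil at 24, 48 and 96 hpf. DESeq2 as run here, without drawing fold changes toward 0, gave miR-722 -1.21, -1.38 and -0.39. Whether the deposited values were drawn toward 0 is not stated, so their sizes cannot be compared with those above. For miR-725-3p the authors' deposited table gives -0.41 (adjusted p = 0.06317), -0.66 (adjusted p = 3.881e-05) and -0.61 (adjusted p = 1.076e-05) in slick oil. No name changed its direction between the 2 analyses among those called in either.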

How the data were processed

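Small RNA of whole embryos or larvae was sequenced in 27 libraries, 3 pools for each of 9 groups. In the 6 deposited tables, each of 3 oil and 3 control libraries, the values are whole numbers for each miRNA name. The column headers are library codes, and the values were taken as unscaled counts. The authors also deposited 6 tables of DESeq2 output with log2 fold changes, p-values and adjusted p-values, per the file headers. How reads were aligned and counted, against which miRNA reference and with which DESeq2 version, is not given in the sources used here. Nothing states whether a count is of reads or of distinct sequences. Of the slick oil table of 24 hpf, 6813 empty lines were dropped. Mature sequences and genome coordinates were not used here.

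The main fits used edgeR 4.0.16 under R 4.3.3: filterByExpr (min.count of 10), TMM scaling, a two-sided quasi-likelihood F test, and Benjamini-Hochberg adjustment over all names in the fit, with a threshold of 0.05. Oil and control were fitted within 1 table. The oils were fitted together with the controls (9 libraries a stage), the control stages together (9 libraries), and the effect by stage over 18 libraries, testing the interaction terms jointly. Where tables were joined, names with unequal control counts were left out. Levels are counts per 70000 of the TMM-scaled total, averaged over both tables for controls. The fits were run on simulated counts whose noise was above sampling noise. Many replicate pairs here agreed more closely than sampling noise, so the simulation cannot show how the fits behave on these counts. Precision is limited by 3 libraries per group of 51925 to 93055 counts each.

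Alternatives were DESeq2 1.42.0, DESeq2 size factors, library size alone, cyclic loess over abundance (limma 3.58.1), no filter, identical names merged, a mean count of at least 50, a replicate block, 1 fit of all 27 libraries, the authors' tables, closely agreeing replicates averaged, and each library left out in turn. Leaving out libraries in the fits of the effect by stage and averaging the closest 48 hpf controls were added after seeing the data. The labels do not say whether libraries of 1 replicate number are paired. Deviations of slick oil and control libraries with the same number correlated at 0.133 to 0.142 in the 3 pairs of 96 hpf. For slick and source oil at 24 hpf these correlations ranged from -0.390 to 0.393. The main fits used no pairing.

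By the rule for named miRNAs, values per library are given for the most abundant name of a number with a mean of at least 10 normalised counts and for any other name that passed in an oil comparison, and names of 1 number whose counts differ by at most 5% of their sum are given once. The miRNAs treated and the lists were chosen with earlier results of these data known.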

Additional observations from a re-analysis of the deposited data

Results flagged for a closer look

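The effect of an oil differed between 24, 48 and 96 hpf for 4 signals, by edgeR's quasi-likelihood test of both treatment-by-stage terms together. In slick oil the adjusted p was 0.01578 for miR-722, 2.541e-05 for miR-724, 1.72e-05 for miR-724-5p and 0.006727 for miR-734-3p. In source oil it was 0.02834 for miR-722, 0.0002468 for miR-724, 0.0002321 for miR-724-5p, 0.0181 for miR-737 and 0.01878 for miR-737-5p. The fitted slick oil effect at 96 hpf stood 0.75 above that at 24 hpf for miR-722 and 0.50 below it for miR-724, on the log2 scale. In source oil the 96 hpf effect stood 0.78 above that at 24 hpf for miR-722, 1.13 above it for miR-737-5p and 0.54 below it for miR-724. With cyclic loess over abundance miR-724-5p (adjusted p = 0.0331) and miR-734-3p (adjusted p = 0.0182) passed in slick oil, and none of the source oil names did. In slick oil miR-724, of the same signal as miR-724-5p, did not pass in that setting (adjusted p = 0.0768), nor did miR-722 (adjusted p = 0.156). There miR-727-3p passed in slick oil (adjusted p = 0.0294), which it did not in the main fit.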

How the results depend on the processing

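No called value changed its direction in any alternative. Over all names and alternatives 2692 values stayed on their side of the threshold, 263 were lost and 64 gained. Called names in slick oil at 24 hpf were 9, and 5 in DESeq2, 1 with a mean count of at least 50, 1 in the authors' deposited table and 4 to 8 with a library left out; in source oil they were 8, and 0 in DESeq2, 5 with cyclic loess, 5 with no filter, 2 with a mean count of at least 50, 0 in the authors' deposited table and 2 to 7 with a library left out. At 48 hpf they were 11 in slick oil, and 7, 5 and 7 in DESeq2, with a mean count of at least 50 and in the authors' deposited table, and 9 to 10 with a library left out; in source oil they were 7, and 0, 3 and 0 in the same settings, 2 with the closest 48 hpf control replicates averaged and 1 to 7 with a library left out. At 96 hpf DESeq2 gave 8 of 12 in slick oil and 4 of 5 in source oil, a mean count of at least 50 gave 4 of 12 in slick oil and 2 of 5 in source oil, and leaving out a library gave 8 to 10 and 4 to 6. Between the oils, the 1 name of 48 hpf was 0 in DESeq2, with DESeq2 size factors, with library size alone, with no filter and with identical names merged, and 0 to 1 with a library left out; the 3 names of 96 hpf were 1 with a mean count of at least 50 and 2 to 4 with a library left out. At 24 hpf the count between the oils was 0 with each library left out. Between control stages the counts were 5 to 7 with a library left out in the first step, and in the second step 6 to 10, 6 in DESeq2 and 6 with a mean count of at least 50. For the effect by stage, slick oil gave 4, and 2 in DESeq2, 2 with a mean count of at least 50 and 3 to 7 with a library left out (7 without 96 hpf control replicate 9); source oil gave 5, and 0 with cyclic loess, 1 with a mean count of at least 50 and 4 to 6 with a library left out. A mean count of at least 50 leaves fewer of these names in the test, and for the other settings the cause was not tested. Shares of all names called in the alternatives are not given here, so these changes cannot be read as particular to these names. With replicate block the counts were 6, 11 and 11 in slick oil and 7, 7 and 5 in source oil at 24, 48 and 96 hpf, 0, 1 and 3 between the oils, and 5 and 5 for the effect by stage in slick and source oil. No paired analysis was possible between control stages because they share no replicate number. Depth limits the weak names, and those that did not pass the filter were tested only without it.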
